A study of Homo sapiens with 12 samples.

Results

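The data described here concern estradiol (E2) given to cells together with the doxycycline that induces the Y537S form of estrogen receptor alpha (ER) in them. The assay was ATAC-seq, which reads out accessible chromatin through a transposase that inserts adapters where DNA is not covered by nucleosomes. Peak summits of the Y537S library treated with doxycycline (Dox) and E2 and of the Y537S library treated with Dox alone, on chromosomes 1 to 22 and X, were joined wherever peaks overlapped by 1 bp or more. This gave 117799 merged regions from 132496 summits of each library. A separate merge of all 12 peak lists of the series gave 166523 regions. The lists were first brought to equal length by their deposited −log10 p-value. For comparison, the same rule gave 63773 regions for the WT receptor and 99666 for the K303R receptor. Each library was the only one of its kind, so no difference between treatments could be tested and all values below are descriptions of these libraries.

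MDA-MB-453, the established breast cancer cell line used throughout, had been engineered to carry an ectopic ER under doxycycline control. The Dox+E2 cells received 2 ug/mL Dox together with 1 nM E2 for 2 days, and the Dox cells received 2 ug/mL Dox without added E2 for 2 days. The other Y537S libraries came from cells given 1 nM E2 without Dox for 2 days and from untreated cells, and the WT and K303R lines had the same 4 treatments. The labels do not say whether a line was 1 clone or how many cultures stood behind a library. The medium held serum according to the labels' protocol, and whether it had been stripped of hormone is not stated, so "without added E2" does not mean free of estrogen.

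ER is a ligand-activated transcription factor. Estradiol folds helix 12 of the ligand-binding domain over the bound hormone, which makes a surface for coactivators, and the receptor binds DNA at estrogen response elements, palindromes of the hexamer family AGGTCA, often at enhancers that FOXA1 and GATA3 keep accessible. Y537S is a substitution in that domain, found in metastatic breast cancers after estrogen deprivation, and it holds helix 12 in the active position without hormone. K303R lies in the hinge of the receptor and is known to make it more sensitive to low hormone. MDA-MB-453 is known as a luminal line that lacks ER of its own.

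Luminal and basal marker promoters were looked up in both libraries. Of the luminal identity genes, 11 of 18 had a promoter in the RefSeq promoter table, and 6 of those promoters (AGR2, CLDN3, CLDN4, CLDN7, EHF and ELF3) lay under a region found in both libraries. Those of KRT8, MUC1, AGR3 and ELF5 had no peak in the promoter window. Of the basal and mesenchymal genes, 3 of 12 promoters (CDH2, LAMA3 and ZEB1) lay under such a region, and those of KRT5, TP63 and VIM did not. Promoters of receptor partners and coregulators, FOXA1, GATA3, NCOA1 and EP300 among them, were open in both libraries for 14 of 14 genes with a promoter in the table. For housekeeping genes and for cell cycle genes this held at 14 of 15 each. Of all 22011 promoter windows in the table, 12014 lay under a region found in both libraries. The luminal count is near that share and so does not mark the line as luminal. The level of the ectopic receptor is not measured by this assay.

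Sequence was available for promoters, and those that opened with Dox were examined first. Of 12014 promoter windows (250 bases before to 50 after a start) under a shared region, 184 had a peak in neither Y537S library without Dox. Of these 184, 8 (4.35%) held the palindrome GGTCANNNTGACC with at most 1 mismatch among its 10 fixed letters, and 115 (62.5%) held the short form GGTCA on either strand. Among the 11728 promoters with a peak in both the E2 and the untreated library, 56 (0.477%) held the palindrome so defined and 33.3% held GGTCA. Of all 22011 windows of protein-coding genes in the table, 0.654% and 35.6% did. Every site with at most 1 mismatch also contains GGTCA on one strand, so the counts overlap. A match is only a match of letters and does not show that the receptor was bound.

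The 8 sites are shown with 8 bases on each side, read along the strand of the gene, because they are the closest matches to the receptor's element in promoters that opened with Dox. Capitals mark letters equal to the palindrome, and lower case inside the site marks the spacer and the mismatch (RefSeq, GRCh38.p14). Positions count the transcription start as 0.
CASKIN2 site, first base at -100 from the start: cccagcccGGTCActcTGAgCctcttccc
F2 site, first base at -204 from the start: gagatgggGGTgAcagTGACCttttttgt
OXT site, first base at -165 from the start: gccaacgcGGTgAcctTGACCccggccca
LRIG1 site, first base at -203 from the start: tctcgcctGGgCActgTGACCtgctcctg
RGS12 site, first base at -41 from the start: ctcctcctGGTCAcgcTGgCCttccggta
GCKR site, first base at -4 from the start: ggaagcagaGTCAttgTGACCagaggggt
TEX35 site, first base at -20 from the start: aaaggggtGGTCAcccTGcCCtcaccttg
C5AR2 site, first base at -61 from the start: cagggccaGGTCActcTGACattgtgggg

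The whole promoter window of CASKIN2 follows, since its region was among the strongest opened with Dox, together with that of F2, the prothrombin gene, and that of OXT, the gene of the oxytocin precursor.
CASKIN2, chr17:75509841-75510140, minus strand: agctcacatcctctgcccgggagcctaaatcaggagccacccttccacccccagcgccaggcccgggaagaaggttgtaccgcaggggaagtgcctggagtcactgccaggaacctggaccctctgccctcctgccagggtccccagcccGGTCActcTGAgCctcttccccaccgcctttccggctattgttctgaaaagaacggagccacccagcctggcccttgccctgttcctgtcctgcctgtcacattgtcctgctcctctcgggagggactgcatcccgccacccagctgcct
F2, chr11:46718963-46719262, plus strand: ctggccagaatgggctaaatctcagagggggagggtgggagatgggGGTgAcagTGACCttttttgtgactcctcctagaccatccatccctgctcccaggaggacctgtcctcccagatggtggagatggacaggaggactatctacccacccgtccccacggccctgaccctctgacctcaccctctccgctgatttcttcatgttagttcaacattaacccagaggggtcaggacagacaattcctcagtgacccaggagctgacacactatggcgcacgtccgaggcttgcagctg
OXT, chr20:3071370-3071669, plus strand: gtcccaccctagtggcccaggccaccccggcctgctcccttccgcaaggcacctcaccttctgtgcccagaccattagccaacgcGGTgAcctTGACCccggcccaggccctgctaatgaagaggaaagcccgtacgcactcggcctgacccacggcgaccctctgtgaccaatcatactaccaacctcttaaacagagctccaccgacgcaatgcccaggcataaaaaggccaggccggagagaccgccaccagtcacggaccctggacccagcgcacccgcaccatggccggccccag

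At 7 of these 8 promoters the signal with Dox+E2 lay within 2-fold of that with Dox. Summit pileup, the number of fragments stacked at the summit, is used for single regions because it can be read back from the deposited fold values as whole numbers. The CASKIN2 region had a pileup of 133 in Dox+E2 and 116 in Dox, with no peak in Y537S cells given E2 alone or left untreated. Its strongest summit lay 1.11 kb from the start, and the region reaches over the promoter. In WT cells it had 37 in Dox+E2 and 14 in Dox, and in K303R cells 12 and 4 in the same treatments. The F2 region had 25 in Dox+E2 and 30 in Dox, and the OXT region had 10 and 7. LRIG1, which encodes an inhibitor of ERBB receptors, had 12 in Dox+E2 and 8 in Dox. RGS12, a regulator of G protein signalling, had 11 in each. GCKR, the glucokinase regulator, had 8 and 6, and C5AR2, a complement receptor gene, had 6 and 4. Of the 8, only the TEX35 region passed a 2-fold difference, with 20 in Dox+E2 and 8 in Dox. Over the 184 promoters the median shift was 0, with an SD over promoters of 0.44 on the log2 scale, and 4 were 2-fold higher and 1 was 2-fold lower with Dox+E2.

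Most of the accessible chromatin was found with and without E2. Of the 117799 regions, 77477 (65.8%) had a peak in both libraries, 20007 (17%) in Dox+E2 only and 20315 (17.2%) in Dox only. The regions found in one list were short and weak, with median widths of 169 bp in Dox+E2-only and 170 bp in Dox-only regions against 439 bp in shared ones. Their median summit pileup was 6 in Dox+E2-only regions and 6 in Dox-only regions, against medians of 12 and 12 in shared regions. A pileup under 10 was seen in 93.9% of the Dox+E2-only regions and 94.1% of the Dox-only regions. Of the shared regions, 36.9% had a Dox pileup under 10. A shared region joins peaks of both lists and keeps their outer borders and highest summits, so part of these contrasts follows from the rule. The lowest pileup listed in either library was 4, so where no peak is given the signal was below about that level, which does not mean closed chromatin.

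The share of regions found in the other list rose with their strength. Of regions with a pileup of 4 to 5 in Dox+E2, 40.4% were found in Dox (exact Clopper-Pearson 95% interval 39.5 to 41.4%). Of regions with a pileup of 4 to 5 in Dox, 41.9% were found in Dox+E2 (40.95 to 42.8%). Between 10 and 14 fragments the shares were 94.2% of the Dox+E2 regions and 94.2% of the Dox regions, and between 15 and 19 fragments they were 99.5% and 99.4%. From 30 fragments upward, 9305 of 9305 Dox+E2 regions were found in Dox and 9267 of 9267 Dox regions were found in Dox+E2. No region of that strength was listed in one library alone. Of the rest, 57 of the Dox+E2-only regions and 68 of the Dox-only regions reached a pileup of 15, and the highest values were 22 and 25. These intervals, and all intervals below, cover counting error only, since PCR copies of fragments are not independent and 1 library stands behind each treatment.

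**Figure D1:**
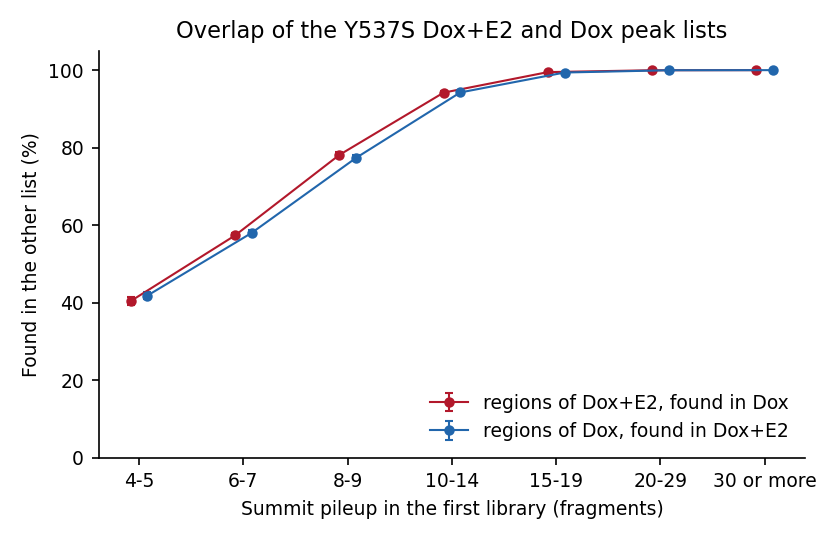
Share of the regions of one Y537S library that had a peak in the other, by summit pileup in the first library (fragments). Points are shares and bars exact 95% intervals; both curves climb from 40.4% and 41.9% at 4 to 5 fragments to 100% from 30 fragments upward.

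The strongest regions found with Dox+E2 only were mostly ones that Y537S cells showed without Dox. A region 57.5 kb from GXYLT1 (hg38, chr12:42023979-42024492) had a pileup of 22 in Dox+E2 and no peak in Dox, but 13 with E2 alone and 9 untreated. A region inside ATXN2 (chr12:111597349-111597772) likewise had 22, none, 10 and 6. Next came regions inside LCA5L, MYOF, RPUSD1 and TANC2 and near IL1RN, the gene of the interleukin 1 receptor antagonist, XRCC4, a DNA repair gene, and EPC1, at 18 to 20 fragments. Of these 9, the TANC2 region (chr17:63258853-63259109) was the only one without a peak in the Y537S libraries lacking Dox. It had a pileup of 19 in Dox+E2 and no peak in Dox, and in the other forms it was listed only in WT Dox (6) and K303R Dox (7).

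The tenth of these regions covered a promoter. It lay at CIDEB, a gene of lipid droplet biology (chr14:24308063-24308621), with a pileup of 18 in Dox+E2, no peak in Dox, 23 with E2 alone and 8 untreated. Its promoter window held no GGTCA on either strand and is shown because it is the only promoter of the table under one of the 20 strongest one-list regions.
CIDEB, chr14:24307928-24308227, minus strand: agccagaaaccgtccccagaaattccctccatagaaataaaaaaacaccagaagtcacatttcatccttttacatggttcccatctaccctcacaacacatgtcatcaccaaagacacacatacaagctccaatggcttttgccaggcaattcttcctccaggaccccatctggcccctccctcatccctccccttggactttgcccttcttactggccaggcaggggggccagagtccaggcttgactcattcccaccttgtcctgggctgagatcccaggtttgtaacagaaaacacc

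Among the strongest regions found with Dox only, the first lay inside RSPO3, a Wnt signal potentiator gene (chr6:127121461-127121711), with no peak in Dox+E2, 25 fragments in Dox, 9 with E2 alone and 12 untreated. Regions near SMIM13 (chr6:11144432-11144679) and YIPF6 (chrX:68490730-68490986) had no peak in Dox+E2 and 20 in Dox, and again had peaks without Dox (17 and 7 near SMIM13, 16 and 7 near YIPF6, with E2 alone and untreated). The others lay inside KIF24, ARHGAP32, PREP, KCNMA1, a potassium channel gene, and LRP5, a Wnt co-receptor gene, and near MED9 and EED. The regions in PREP and near EED had a Dox+E2 summit of 4 fragments that fell below the common list length. The regions inside LRP5 (chr11:68341309-68341646) and KCNMA1 (chr10:77351212-77351546), each with 17 in Dox and no peak in Dox+E2, were the only ones of the 10 with no peak in the Y537S libraries lacking Dox. None of the 30 listed estrogen target genes was at these 20 places.

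Both one-list classes looked alike elsewhere. Of the Dox+E2-only regions 35.9% had a peak in Y537S cells given E2 alone and 31.4% in untreated cells, and of the Dox-only regions 37.5% and 32.6% did. In WT Dox+E2 cells 7.82% of the Dox+E2-only regions and 8.10% of the Dox-only regions had a peak, against 52.5% of the shared regions. Within 1 kb of a protein-coding start, where the promoter table gives one, lay 8.32% of the Dox+E2-only regions (7.93 to 8.73%), 8.05% of the Dox-only regions (7.67 to 8.44%) and 15.3% of the shared regions (15.04 to 15.6%).

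In the 77477 shared regions the summit pileups with and without E2 were equal at the median. The median ratio of summit pileups, Dox+E2 over Dox, was 1. Pileups are not scaled for depth, and centring removes the median, so a change common to all regions could not be seen. The median log2 ratio of the deposited fold enrichment was -0.04, which is the step between the backgrounds of the libraries (0.364 fragments in Dox+E2 and 0.329 in Dox) that enter the fold. After centring on this median the SD over regions was 0.45, and the middle 80% of regions lay between -0.56 and 0.58. Log2 fold enrichment of the libraries correlated across regions with r = 0.864, a description over regions that share libraries and background.

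**Figure D2:**
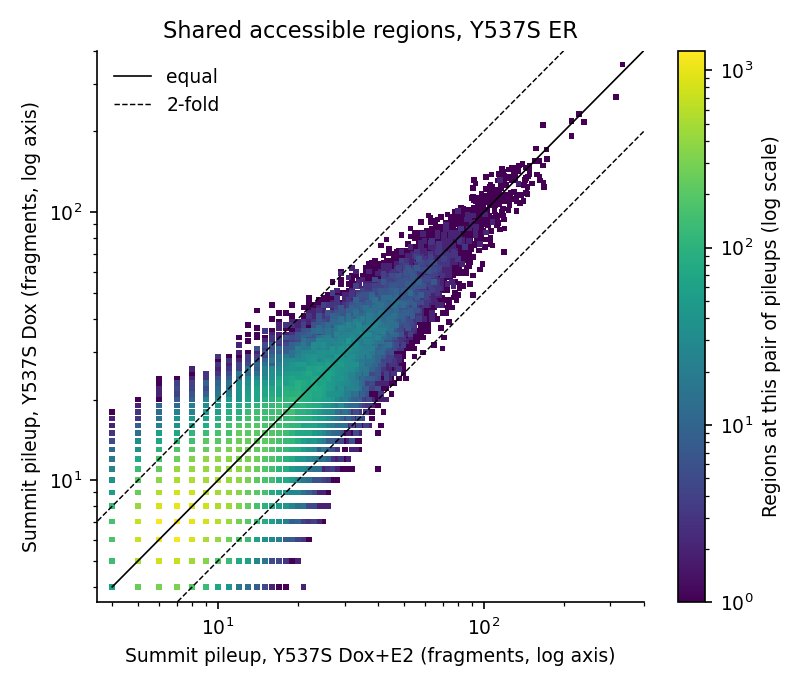
Summit pileups of the 77477 shared regions in Y537S Dox+E2 (horizontal, fragments) and Y537S Dox (vertical, fragments), both on log axes; colour gives the number of regions at each pair of values. The cloud follows the line of equality up to the highest pileups of 333 and 356, and regions beyond the dashed 2-fold lines sit mostly at low pileups.

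A 2-fold difference, after centring, was reached by 1602 shared regions in the direction of Dox+E2 (2.07%) and by 1370 in the direction of Dox (1.77%). Without centring the counts were 982 higher and 1373 lower. Among the 38724 shared regions with a mean fold above the median, 534 (1.38%) were higher and 543 (1.4%) lower. Exact binomial intervals of the pileup ratio lay wholly above the median ratio in 634 regions (0.818%) and wholly below it in 608 (0.785%). Counting alone puts some regions outside a 95% interval on each side, so neither share is read as a set of E2-responsive regions.

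The named regions with the largest shifts had low pileups on the lower side. PSMD12, a proteasome subunit gene, had a region 44.0 kb away (chr17:67293604-67294235) with 40 fragments in Dox+E2 and 11 in Dox, a pileup ratio of 3.64 (1.83 to 7.86). The same region had 28 fragments with E2 alone and 28 untreated, so the Dox library was the low one of the 4. A region inside SPATS2L (chr2:200455415-200455869) had 21 in Dox+E2 and 4 in Dox, with no peak in the 10 other libraries. One 0.338 kb from OAZ1, the ornithine decarboxylase antizyme gene (chr19:2273696-2274011), had 21 and 4, and 10 and 10 with E2 alone and untreated. One near CPXM2 (chr10:123722825-123723252) had 25 and 7, no peak in the Y537S libraries without Dox, and in the other forms was listed only with Dox+E2 (10 in WT and 5 in K303R). The others lay inside CACNA2D2, SGMS1, RHEB, the activator of mTORC1, and LOC102724877, near VAPA, and on chromosome 13 with no gene within 100 kb, at 20 to 22 fragments in Dox+E2 and 5 to 6 in Dox.

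In the other direction the first was a region 5.39 kb from PAK2, a kinase gene (chr3:196837912-196838172), with 6 in Dox+E2, 24 in Dox, 23 with E2 alone and 17 untreated. A region inside HIPK2 (chr7:139732189-139732485) had 5, 20, 20 and 20 in the same libraries. A region 0.716 kb from GUCY1A2, a guanylate cyclase subunit gene (chr11:107018924-107019343), had 6, 23, 22 and 18. In each of these the Dox+E2 library was the low one of the 4. The remaining ones lay inside RPS24, PACS2, ZBED3 and PRRC2B, near EVI5L and CADM3, and on chromosome 7 without a gene within 100 kb. Of the 10, only the PACS2 region (chr14:105328201-105329269; 6 in Dox+E2 and 22 in Dox) had no peak in Y537S cells without Dox.

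The ZBED3 region (chr5:77086684-77087668) covered a start of ZBED3, on the minus strand, and one of PDE8B, a cyclic nucleotide phosphodiesterase gene on the plus strand. The region had 6 fragments in Dox+E2, 22 in Dox, 22 with E2 alone and 29 untreated. Neither window held GGTCA, and that of ZBED3 is shown as the promoter with the lowest shift among the named regions.
ZBED3, chr5:77087236-77087535, minus strand: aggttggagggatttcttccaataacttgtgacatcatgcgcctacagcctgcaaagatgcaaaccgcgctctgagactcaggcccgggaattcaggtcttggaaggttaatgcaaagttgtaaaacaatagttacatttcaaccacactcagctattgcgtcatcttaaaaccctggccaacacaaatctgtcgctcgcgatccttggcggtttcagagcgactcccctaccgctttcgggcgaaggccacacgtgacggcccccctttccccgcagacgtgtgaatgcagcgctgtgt

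The direction of the 2-fold regions was then looked up in E2 pairs that share no library with this one, and shares between 41.8% and 54.2% were above the median of those pairs. Of the 2-fold higher regions of the stronger class, 246 had values in WT Dox+E2 and Dox, and 54.1% of these were above the WT median (47.6 to 60.4%). Of the 2-fold lower ones 44.0% of 248 were (37.7 to 50.4%). In K303R Dox+E2 against Dox the shares were 51.5% of 309 and 48.9% of 321, and in Y537S E2 against untreated they were 52.0% of 321 and 52.2% of 362. In WT E2 against untreated they were 41.8% of 177 (34.5 to 49.4%) and 44.0% of 184 (36.7 to 51.5%), and in K303R E2 against untreated 45.1% of 142 and 54.2% of 142. Of all regions of the stronger class with values in these pairs, between 50.5% and 53.5% were above the median. Over all regions of the stronger class the correlation of shifts with these 5 pairs lay between -0.01 and 0.02, a description with no test.

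The next question was whether the signal changed with E2 in the chromatin that had opened with Dox. There were 30403 shared regions with no peak in either Y537S library without Dox, and the median shift with E2 in them was 0, as it was in the 42662 shared regions with peaks in both. Ratios of small whole pileups are often tied, so the quartiles say more: -0.26 and 0.32 in the Dox-opened regions, and -0.29 and 0.29 in those open without Dox. Among the Dox-opened, 687 (2.26%) were 2-fold higher and 505 (1.66%) 2-fold lower with Dox+E2, near the shares of all shared regions. In the stronger class the counts were 197 higher and 165 lower of 12458 Dox-opened regions, and 321 higher and 362 lower of 25235 regions with peaks in both libraries lacking Dox. In the 1000 strongest Dox-opened regions, with median pileups of 44 in Dox+E2 and 44 in Dox, shifts had an SD of 0.30, ran from -1 to 1.15, and were 2-fold in 1 region each way. A 1.5-fold difference was reached by 55 of the 1000.

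TFRC, the gene of the transferrin receptor, held the strongest Dox-opened region (chr3:196055004-196056663), with 136 in Dox+E2 and 149 in Dox, a ratio of 0.913 (0.718 to 1.16). The region inside WNT9A, a Wnt ligand gene (chr1:227934482-227936302), had 146 and 124, a ratio of 1.18 (0.920 to 1.51). The region inside HHAT, which encodes the acyltransferase of hedgehog ligands (chr1:210649067-210650158), had 114 and 139, a ratio of 0.820 (0.635 to 1.06). In the WT line the HHAT region had 44 in Dox+E2 and 12 in Dox, and in K303R 22 and 6. The region inside SHANK2 (chr11:71201710-71204138) had 116 and 123 in Y537S, 58 and 34 in WT and 28 and 11 in K303R. Of the 10 strongest, 9 had a higher pileup with Dox+E2 than with Dox in WT cells and the one near MYOG a lower one (39 and 47). In K303R cells 8 were higher with Dox+E2, the TFRC region was lower (30 and 37), and the one inside ASAP1 was listed with Dox+E2 (22) and not with Dox. For 9 of the 10 strongest the interval of the Y537S ratio included 1; the exception, inside ASAP1, had 115 in Dox+E2 and 86 in Dox, a ratio of 1.34 (1.00 to 1.79). None of the 10 had a peak in Y537S cells without Dox, by the definition of the class.

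The same 30403 regions looked different in the other receptor forms. In WT cells 34.8% of them had a peak in Dox+E2 and 23.1% in Dox, and in K303R cells 35.2% and 15.8%. Where a form had values in both libraries, the median centred shift with E2 was 0.39 in WT (5180 regions) and 0.18 in K303R (3753 regions), against 0 in Y537S. A 2-fold higher signal with E2 was seen in 15.6% of the WT and 6.50% of the K303R regions, and a 2-fold lower one in 1.47% and 2.29%. In the 42662 regions open without Dox the median shift was -0.05 in WT, -0.04 in K303R and 0 in Y537S. The Y537S value is taken over regions that were required to have a peak in both Y537S libraries, so it is bounded by that choice. Among all 54042 regions of the Y537S pair without a peak in the Y537S libraries lacking Dox, 22.04% were in Dox+E2 only and 21.7% in Dox only. The peak names of the Y537S libraries begin with a tag that no other library carries. Receptor form and tag therefore cannot be told apart here. Peaks were looked up in full lists, which held 64476 (Dox+E2) and 82091 (Dox) summits in WT and 102713 and 97243 in K303R. The Y537S lists held 133963 and 132496, and the part of list length was not tested. Whether the forms differ beyond the spread of repeated libraries could not be tested.

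A set chosen in the WT libraries alone was then followed in the Y537S pair. There were 9362 regions with a peak in WT Dox+E2 and in no other WT library. Of these, 82.7% had a peak in Y537S Dox+E2 (82.0 to 83.5%) and 82.8% in Y537S Dox (82.1 to 83.6%), while 16.5% had one with E2 alone and 14.1% in untreated Y537S cells. In K303R the shares were 45.01% in Dox+E2, 16.7% in Dox, 4.02% with E2 alone and 1.47% untreated. The median pileup of the listed peaks was 15 in Y537S Dox+E2 and 15 in Y537S Dox, but 5 in K303R Dox+E2 and 5 in K303R Dox. The lowest pileup listed in these K303R libraries was 3, so their peaks in this set lay near the floor. Y537S regions of this set found in Dox+E2 and not in Dox made up 5.47%, and those found in Dox and not in Dox+E2 made up 5.55%. Among the merged regions of the Y537S pair, which have borders of their own, 6169 shared ones overlapped a peak of WT Dox+E2 and of no other WT library. Their median shift was 0, with 118 of them 2-fold higher and 100 lower. The set of 13873 regions with a peak in WT Dox alone was open in 41.6% in Y537S Dox+E2, 41.7% in Dox, 33.8% with E2 alone (4696 regions), and 4023 of its regions had a peak untreated. The WT libraries with Dox held fewer peaks than the Y537S libraries (64476 in Dox+E2 and 82091 in Dox), and the part of this difference in the shares was not tested. The peak names of the WT libraries with Dox also carry another tag than those of the WT libraries without Dox, so tag and Dox cannot be told apart in the choice of this set. Receptor form and tag can likewise not be told apart where Y537S stands beside K303R.

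**Figure D3:**
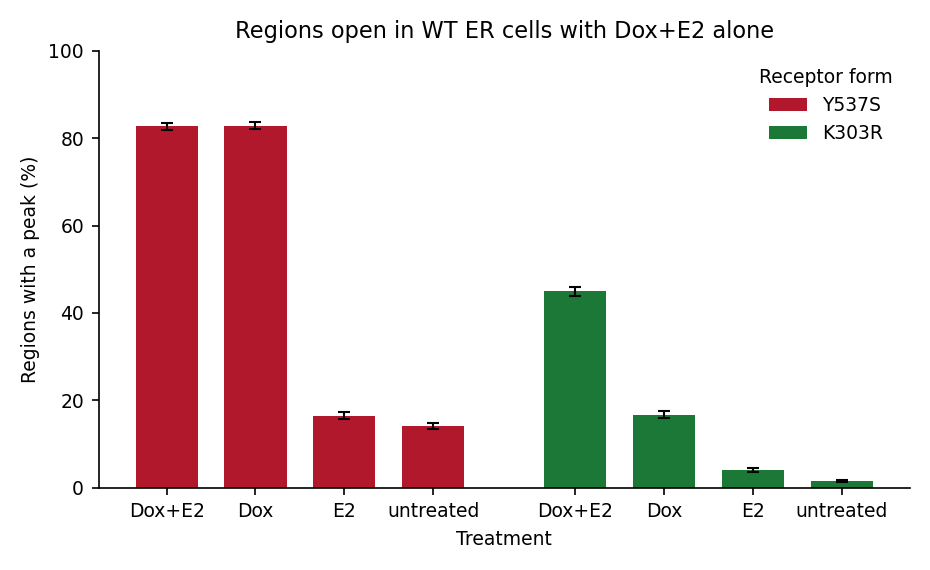
Share of the 9362 regions with a peak in WT Dox+E2 cells and in no other WT library that had a peak in each Y537S and K303R library, with exact 95% intervals over regions. The Y537S bars stand at 82.7% with Dox+E2 and 82.8% with Dox, whereas the K303R bars stand at 45.01% and 16.7%. Median pileups of the listed peaks in these libraries were 15 and 15 in Y537S and 5 and 5 in K303R.

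Across pairs of libraries, all limited to the 39522 strongest summits of each, the Y537S Dox+E2 and Dox lists overlapped in 69.2% of merged regions. The overlap was 52.6% for WT Dox+E2 and Dox, 61.8% for K303R Dox+E2 and Dox, 72.9% for Y537S E2 and untreated, 55.9% for WT E2 and untreated and 53.7% for K303R E2 and untreated. Adding Dox gave 40.4% for Y537S Dox+E2 and E2 and 40.0% for Y537S Dox and untreated. Counting intervals off the median ratio were seen in 2.23% of shared regions in Y537S Dox+E2 against Dox, 3.3% in WT, 1.57% in K303R, 3.03% in Y537S E2 against untreated, 0.784% in WT E2 against untreated and 1.12% in K303R E2 against untreated. For Y537S Dox+E2 against E2 the share was 14.1%, and for Y537S Dox against untreated it was 13.3%. Counting alone puts some regions outside a 95% interval, so the shares of the E2 pairs are not read as amounts of response to E2. The share with E2 added to the induced mutant was 2.23%, and that with E2 added without Dox in the same line was 3.03%, a difference that was not tested. The Y537S pairs share libraries with each other. Median pileups were 26 and 26 in Y537S Dox+E2 and Dox, and 31 and 27 in Y537S E2 and untreated. They were 14 and 16 in WT Dox+E2 and Dox, and 16 and 15 in K303R Dox+E2 and Dox. In WT E2 and untreated they were 17 and 7, and in K303R E2 and untreated 14 and 10. Counting intervals are narrower at higher pileups, and the part of pileup in the overlaps and in the shares off the median ratio was not tested.

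**Figure D4:**
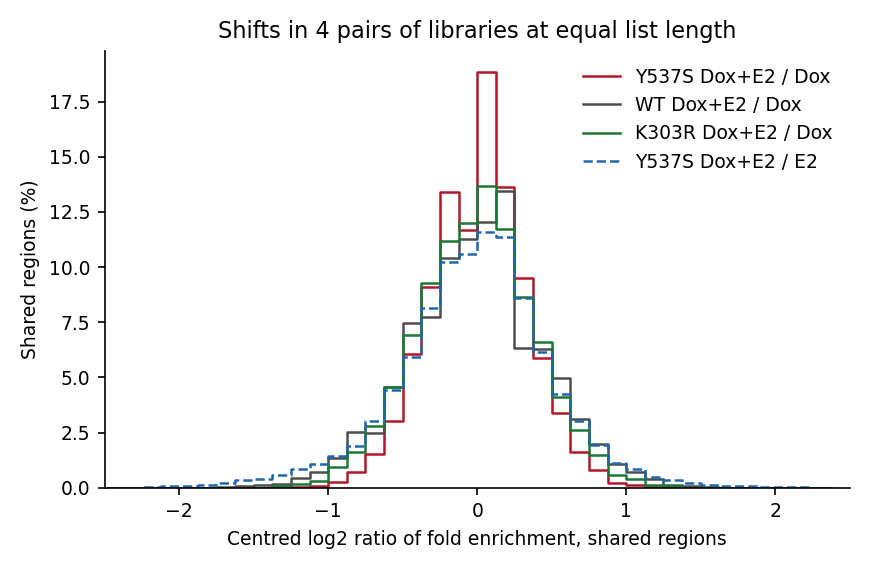
Distribution of the centred log2 ratio of fold enrichment over shared regions, in percent of shared regions, for Dox+E2 over Dox in Y537S, WT and K303R and for Dox+E2 over E2 in Y537S, each at 39522 summits per library. Of the 4 curves drawn, Y537S Dox+E2 over Dox has the lowest SD (0.323) and Y537S Dox+E2 over E2 the highest (0.514). Y537S E2 over untreated, not drawn, had an SD of 0.326. Median pileups for Dox+E2 and Dox were 26 and 26 in Y537S, 14 and 16 in WT and 16 and 15 in K303R. For Y537S Dox+E2 and E2 they were 27 and 34. Ratios of lower pileups spread more by counting, and its part in the SDs was not tested.

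At the strongest regions of GREB1, TFF1 and PGR the counting interval of the Dox+E2 to Dox ratio included 1. The intervals are wide and do not show that the values are equal. The regions were picked as strongest in the compared libraries themselves. GREB1, a growth regulator induced by estrogen, had its strongest region within 50 kb inside the gene (chr2:11498501-11498959), with 23 fragments in Dox+E2 and 22 in Dox and no peak without Dox. The ratio was 1.05 (0.557 to 1.97). Over the 18 shared regions near GREB1 the shifts ran from -1 to 1.087, with 1 region 2-fold higher and 1 lower. TFF1, the trefoil peptide gene long used as an estrogen marker, had one 0.298 kb from the nearer boundary of the gene (chr21:42366211-42367161). Strand was not used for this distance, and the promoter table gave no start for TFF1. The region had 42 in Dox+E2, 45 in Dox, 10 with E2 alone and no peak untreated. Its ratio of Dox+E2 to Dox was 0.933 (0.598 to 1.45). In WT cells this region had 21 in Dox+E2 and 13 in Dox, and in K303R 17 and 11. The strongest region within 50 kb of PGR, the progesterone receptor gene, lay 5.94 kb from ARHGAP42 (chr11:100999553-101000234) and had 42 in Dox+E2 and 31 in Dox, a ratio of 1.35 (0.832 to 2.23). No peak was listed there without Dox.

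CA12, a carbonic anhydrase gene, had 64 in Dox+E2, 67 in Dox, 51 with E2 alone and 34 untreated at its strongest region (chr15:63381578-63382637). XBP1, a factor of the unfolded protein response, had 68, 61, 58 and 49 (chr22:28799792-28801060). CCND1, which encodes cyclin D1, had 57, 59, 79 and 59 (chr11:69637992-69639648). RET, a receptor tyrosine kinase gene, had 45, 66, 69 and 45 (chr10:43025813-43027957). Of the 11 genes shown, ESR1 and RET had the lowest ratios, 0.676 (0.390 to 1.15) and 0.682 (0.456 to 1.01), and for all 11 the counting interval of the Y537S ratio included 1.

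The pioneer factor FOXA1 had its strongest region in TTC6, the gene beside it (chr14:37597574-37598947), with 46 in Dox+E2, 34 in Dox, 70 with E2 alone and 63 untreated. GATA3, its partner, had 22, 24, 35 and 25 (chr10:8049186-8051680). ESR1, the receptor's own gene, had 25, 37, 34 and 26 (chr6:151763832-151764574). FKBP5, an immunophilin gene induced by glucocorticoids, had 33, 26, 25 and 26 (chr6:35727660-35728452).

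**Figure D5:**
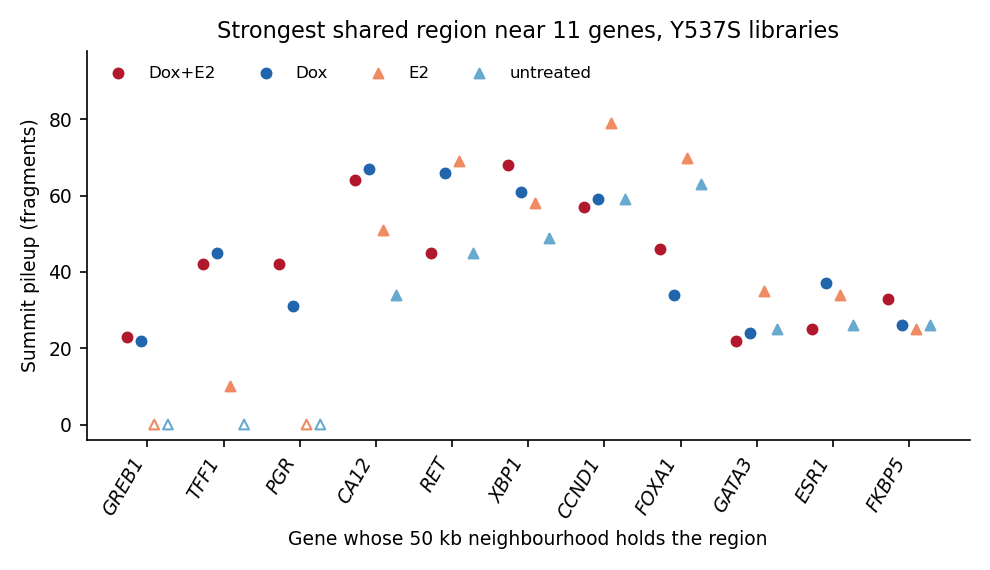
Summit pileup (fragments) of the strongest shared region within 50 kb of 11 genes in the 4 Y537S libraries; filled symbols are listed peaks and open symbols at 0 mark libraries without a listed peak. The Dox+E2 and Dox points lie close together at GREB1 (23 and 22) and TFF1 (42 and 45), and farther apart at RET (45 and 66).

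Of 30 estrogen target genes, 24 had at least 1 Dox+E2-only region within 50 kb and 24 had at least 1 Dox-only region. Among all 19970 protein-coding genes the shares were 70.7% and 71.2%, so a one-list region near a gene is common. Of the 524 regions near the 30 genes, 81 were Dox+E2-only and 110 Dox-only, none above 13 and 12 fragments. Of all 117799 regions, 17% and 17.2% were in these classes. TFF1 had 6 Dox+E2-only regions and 1 Dox-only region, while RET had 5 and 14 and CA12 had 4 and 11. ABCA3 had 16 and 15, and GREB1 had 3 and 2. Windows of neighbours such as TFF1 and TFF3 overlap, so regions can count for several genes. The 333 shared regions near the 30 genes had a median shift of 0, with 4 of them 2-fold higher and 5 lower. The 3 of these that were in the stronger class were a region inside ARHGAP42 near PGR (chr11:100980241-100980511; 22 in Dox+E2 and 8 in Dox, ratio 2.75, interval 1.18 to 7.14), one 28.8 kb from KCNK17 near KCNK5 (8 and 18, ratio 0.444, 0.167 to 1.07), and one inside PEBP4 near EGR3 (11 and 23, ratio 0.478, 0.210 to 1.02).

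The strongest one-list regions at these genes were weak. FOXC1 had a Dox+E2-only region of 13 fragments inside GMDS, RAB31 and TPD52L1 had one of 10 each, and XBP1 had one of 9. ADCY9 had a Dox-only region of 12, and GREB1, CA12, RET and NRIP1, a corepressor gene, had one of 9 each. Those of XBP1 (25 and 13), TPD52L1 (10 and 6) and GREB1 (9 and 7) were also listed in Y537S cells with E2 alone and untreated. The other regions named here had no peak in the Y537S libraries lacking Dox. EGR3 had no one-list region of either class.

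Another 8 lists were counted in the same way, to be read beside the 70.7% (Dox+E2-only) and 71.2% (Dox-only) of all protein-coding genes. Receptor partners and coregulators had a Dox+E2-only region at 17 of 18 genes and a Dox-only region at 16 of 18. Cell cycle genes had them at 17 and 16 of 20, immediate early genes at 16 and 15 of 18 and housekeeping genes at 17 and 19 of 20. Luminal identity genes had them at 15 and 17 of 18, basal and mesenchymal genes at 14 and 15 of 18, growth factor receptors and ligands at 17 and 16 of 20, and genes of estrogen synthesis and breakdown at 10 and 13 of 15. Of the 114 to 208 shared regions of a list, 1 to 4 were 2-fold higher and 1 to 6 lower with Dox+E2, beside 2.07% and 1.77% of all shared regions. In the stronger class the counts per list were 0 to 3 higher and 0 to 5 lower, beside 1.38% and 1.4% of all shared regions of that class. Receptor partners and coregulators had 0 higher and 5 lower, and immediate early genes had 3 higher and 1 lower. The stronger regions of each list were not counted, so no share is given. The median shift of the shared regions of these lists lay between 0 and 0.08.

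Exact copies of the palindrome GGTCANNNTGACC were present in 2 promoters under a shared region, of 8 among the 22011 windows. Both promoters were open in all 12 libraries. The ZNF669 region (chr1:247103747-247104866) had 59 in Dox+E2, 64 in Dox, 112 with E2 alone and 74 untreated, and the SLC35B2 region (chr6:44256527-44257880) had 10, 13, 14 and 16. The sites are shown with 8 bases on each side, capitals marking the palindrome's fixed letters, for comparison with those of the Dox-opened promoters above.
ZNF669 site, minus strand, first base at -174 from the start: ccaaaagcGGTCAttcTGACCtcatccag
SLC35B2 site, minus strand, first base at -241 from the start: atggcaatGGTCAccaTGACCtctgggac

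Of the promoters under one-list regions, counted as windows, 2 of 319 with Dox+E2 only and 1 of 293 with Dox only held the palindrome with at most 1 mismatch; both of the Dox+E2-only windows belong to 1 gene, SLC4A2. GGTCA was present in 39.5% of the Dox+E2-only and 37.9% of the Dox-only promoters, against 33.8% of those under shared regions. The forkhead motif TGTTTAC was present in 4.39%, 3.75% and 2.26% of these classes in that order, and the AP-1 motif TGANTCA in 7.52%, 6.48% and 4.20%. Of the 9385 promoters with a peak in neither library, 37.8% held GGTCA, 3.54% the forkhead motif and 8.61% the AP-1 motif, and of all 22011 windows 35.6%, 2.86% and 6.16% did. All motifs were searched on both strands. Over the 12014 promoters under shared regions the median shift was 0 with an SD of 0.378, and 121 were 2-fold higher and 67 lower with Dox+E2.

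One-list regions were spread over the genome. The median shift was 0 on every chromosome tested, 1 to 22 and X. In 1496 windows of 1 Mb with at least 20 shared regions the median shift ran from -0.36 to 0.35. The largest excess of Dox+E2-only regions, picked after the counts were seen, was on chromosome 22 between 37 and 38 Mb, with 41 in Dox+E2 only and 14 in Dox only. The largest in the other direction was on chromosome 9 between 127 and 128 Mb, with 13 and 30.

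The depth of the libraries bears on these comparisons. On chromosomes 1 to 22 and X the deposited lists held 133963 summits for Dox+E2 and 132496 for Dox, both with a median pileup of 10. The other Y537S libraries held 118631 with E2 alone and 106291 untreated, and those of the WT and K303R forms held 39522 to 102713. The peak names begin with a tag whose meaning is not stated. The 4 Y537S libraries share 1 tag, which holds the word trypsin and which no other library carries. Receptor form and tag therefore cannot be told apart wherever Y537S is set beside WT or K303R. The WT Dox+E2 and Dox libraries share another, and the WT libraries without Dox and the 4 K303R libraries carry one tag in common.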

How the data were processed

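ATAC-seq libraries were sequenced as 75 bp paired ends, per the labels' protocols. FastQC, Bowtie2, SAMtools, Picard and MACS2 with build hg38 are named in the submitters' processing notes; no version, setting or read offset is given in the sources used here. The authors deposited 1 peak list per library, without pooling of libraries. In the deposited lists, fold enrichment is a ratio, summit pileup plus 1 over background plus 1, and whole pileups were recovered from its steps to within 0.000715. The deposited −log10 p-value ranked the peaks and the deposited −log10 q-value served as an alternative threshold.

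For the Y537S pair, 1467 summits of the longer Dox+E2 list were dropped by −log10 p, ties by a fixed random draw. Regions shared by both lists were compared by the log2 ratio of their highest fold, centred on the median and rounded to 3 decimals. "Stronger" means a mean fold above the median of shared regions. Intervals are exact Clopper-Pearson 95% intervals; a ratio interval treats both pileups as counts. Starts and promoter windows were read from RefSeq's promoter table (GRCh38.p14), which matched 15711 of 19970 protein-coding genes, and gene spans from its gene table, where all 192 list genes matched. Named regions were the 10 strongest of each one-list class by −log10 p, the 10 largest and 10 smallest shifts among stronger shared regions, the strongest region within 50 kb of 13 fixed genes (2 of them, and 1 gene list, are not reported here), and one-list or 2-fold regions at estrogen targets. The promoters shown for Dox-opened regions were chosen after their values were seen. Members, lists and rules were chosen with earlier results of these data known. The steps were tested on simulated peak lists. Python 3.11.15, pandas 2.3.3, NumPy 2.4.6 and SciPy 1.17.1 were used.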

Additional observations from a re-analysis of the deposited data

How the results depend on the processing

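Each value was recomputed under the alternatives planned for it; the thresholds on −log10 q also left lists of unequal length, so these settings change both choices together. With all peaks of both libraries, 20893 regions were in Dox+E2 only and 19852 in Dox only. With 39522 summits per library, 5168 regions were in Dox+E2 only and 5177 in Dox only, 69.2% were shared, and 39 were 2-fold higher and 44 lower. With a −log10 q of 5 or more, the lists kept 108599 Dox+E2 and 120048 Dox summits, and 11205 regions were in Dox+E2 only and 21621 in Dox only, 66.3% were shared, and 992 were higher and 619 lower. The cause of that imbalance was not tested. At 10 or more the values were 9126, 8708, 69.9%, 210 and 211. Requiring peaks to cover 50% of a region gave 61.3% shared, and summits within 250 bp gave 65.0%. A fold of 1.5 gave 8466 higher and 7632 lower, and no centring gave 982 higher. Shares of one-list regions near starts were 13.9% in Dox+E2 only and 12.7% in Dox only at 39522 summits, 9.61% in Dox+E2 only when −log10 q was at least 10, and 14.1% and 13.8% within 2500 bp. Estrogen target genes with a one-list region numbered 12 and 15 at 39522 summits. The median log2 ratio stayed at -0.04 and the median shifts of both classes at 0 in the settings run for them, but ratios of small whole pileups are often tied at the median, so these medians can hide small changes. The lists of the Y537S pair hold no pileup under 4, and those of the other libraries none under 3, 4 or 5, which limits every statement on regions without a peak. No paired analysis was possible because each group held 1 library, so no replicate could be left out either.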
